A study of Mus musculus with 12 samples.

Results

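Expression of 41 genes of DNA replication and mitosis was described in 12 RNA sequencing libraries of mouse pancreatic islets. The genes were chosen as a list of mouse symbols, and each was found by its Ensembl identifier among the 54532 genes counted per library. They comprise 17 genes of S phase (Mcm2 to Mcm7, Cdc6, Cdt1, Cdc45, Rrm1, Rrm2, Tyms, Tk1, Pcna, E2f1, Ccne1 and Ccne2) and 24 genes of mitosis. All 41 were kept by the low-count filter and were tested together with 16076 genes in all, and none was at 0 in any library. The rule uses no measured value, but the list was drawn up with earlier results of these data known.

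Cells that enter the division cycle first switch on E2F transcription factors and E cyclins, which drive the genes for the MCM helicase, the sliding clamp and the enzymes of deoxynucleotide synthesis. Genes of mitosis follow later in the cycle, under factors such as FOXM1 and the DREAM and MuvB complexes, whose target promoters often carry a CHR element beside CCAAT boxes. In adult mice beta cells divide rarely, so most islet cells are quiescent, and transcripts of these genes can also come from dividing cells of other types within the isolated islets. Islets were digested out with collagenase and contain beta, alpha, delta and other endocrine cells, vessels, stroma and immune cells.

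The study compared male C57BL/6 mice, labelled as 40 weeks old, that were wild type (WT) or carried a pancreatic beta cell selective knockout of Sirt3 (KO), a mitochondrial deacetylase. Each genotype was kept on a standard diet (STD, 6.2% fat) or on a high fat diet (HFD, 60% of calories from fat, for 36 weeks), which gave 4 groups of 3 libraries. The labels name no promoter or Cre line for the knockout. The HFD WT mice had 4 weeks of standard diet before the high fat diet, whereas HFD KO replicates 1, 2 and 3 had 6, 5 and 6 weeks. These periods add to 40 weeks in WT and to 41 or 42 weeks in KO, so genotype and length of the earlier period differ together on the high fat diet and cannot be told apart. No label states whether each library stands for its own animal, so every p-value measures the spread between these libraries, which may in part be technical.

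Total counts per library lay between 16037709 and 20864920. Levels within a gene are given as CPM (counts per 1e+06 counts) over library sizes scaled by the trimmed mean of M values. Levels between genes are given as the deposited FPKM, which divides by gene length. The 9 beta cell markers, Ins1 and Ins2 among them, were counted in all 12 libraries and summed to between 188000 and 406000 CPM by library. Sirt3 was at 9.04 to 11.8 CPM in the 6 WT libraries and at 5.86 to 7.85 CPM in 5 KO libraries, and it was at 11.5 CPM in the other KO library. That library, labelled HFD KO 2, thus had a Sirt3 level within the range of WT. It is named by its label throughout. The high fat diet calls among members and other cell cycle genes, and the medians of the members, are also given without it. Most genes that were not called, and the cell type markers, are given only with it. The cells of these bulk samples that still carry Sirt3 were not measured, and a lower number of cells of one type cannot be told apart from less RNA per cell.

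The promoters of the members were searched for 3 sequence elements known from cell cycle genes. RefSeq windows from 250 bases before to 50 bases after the annotated start (GRCm38.p6) were found for 34 of the 41 members, 36 windows in all because Mcm7 and Prc1 have more than 1 start. Windows of Tpx2, Mcm4, Ccne2, Ccna2, Aurkb, Kif20a and Foxm1 were not used here. The search covered both strands for the CHR (TTTGAA), the CCAAT box (CCAAT) and 4 forms of the E2F site (TTTCCCGC, TTTGGCGC, TTTCGCGC and TTTGCCGC), and E2F forms may overlap each other on opposite strands. Shown 5′ to 3′ in the direction of the gene are 3 mitosis promoters and 2 MCM promoters, with CHR, CCAAT and E2F letters in capitals. Aurka is shown because it was called in the tests, Top2a and Cdc20 because they followed the library pattern of most mitosis genes, and Mcm5 and Mcm6 for contrast.
Aurka (chr2:172370521-172370820, minus strand): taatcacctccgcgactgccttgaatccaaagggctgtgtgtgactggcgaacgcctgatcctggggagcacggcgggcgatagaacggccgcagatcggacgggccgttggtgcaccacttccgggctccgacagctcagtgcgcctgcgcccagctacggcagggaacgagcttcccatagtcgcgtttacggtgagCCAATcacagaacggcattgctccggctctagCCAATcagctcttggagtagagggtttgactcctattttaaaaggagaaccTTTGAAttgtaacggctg
Top2a (chr11:99024140-99024439, minus strand): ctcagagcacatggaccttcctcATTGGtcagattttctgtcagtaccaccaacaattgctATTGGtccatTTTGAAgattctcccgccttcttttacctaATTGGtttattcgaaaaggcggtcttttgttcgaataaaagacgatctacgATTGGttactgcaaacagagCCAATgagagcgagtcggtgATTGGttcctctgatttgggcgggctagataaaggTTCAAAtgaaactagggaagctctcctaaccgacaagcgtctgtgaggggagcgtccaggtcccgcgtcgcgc
Cdc20 (chr4:118437294-118437593, minus strand): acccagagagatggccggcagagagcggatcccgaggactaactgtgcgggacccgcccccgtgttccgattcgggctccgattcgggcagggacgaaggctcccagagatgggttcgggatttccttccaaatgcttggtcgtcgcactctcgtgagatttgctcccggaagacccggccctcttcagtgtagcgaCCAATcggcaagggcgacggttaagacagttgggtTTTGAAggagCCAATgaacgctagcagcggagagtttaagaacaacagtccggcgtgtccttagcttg
Mcm5 (chr8:75109259-75109558, plus strand): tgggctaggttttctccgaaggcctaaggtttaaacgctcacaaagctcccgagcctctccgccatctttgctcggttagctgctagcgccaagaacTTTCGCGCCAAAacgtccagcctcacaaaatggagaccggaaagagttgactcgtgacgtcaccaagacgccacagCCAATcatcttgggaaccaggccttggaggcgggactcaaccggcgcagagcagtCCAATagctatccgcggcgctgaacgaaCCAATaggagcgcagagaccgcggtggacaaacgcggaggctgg
Mcm6 (chr1:128359656-128359955, minus strand): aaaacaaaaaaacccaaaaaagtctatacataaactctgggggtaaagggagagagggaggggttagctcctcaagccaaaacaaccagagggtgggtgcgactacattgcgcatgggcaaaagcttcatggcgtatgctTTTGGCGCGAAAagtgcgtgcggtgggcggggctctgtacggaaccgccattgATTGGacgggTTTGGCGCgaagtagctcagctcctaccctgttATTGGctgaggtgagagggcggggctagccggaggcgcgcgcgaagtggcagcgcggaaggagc
The Aurka window holds 2 CCAAT boxes and 1 CHR, that of Top2a 6 CCAAT boxes and 2 CHRs, and that of Cdc20 2 CCAAT boxes and 1 CHR. The Mcm5 and Mcm6 windows hold CCAAT boxes and E2F letters but no CHR.

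Over all matched members, CHR letters were found in 15 of 20 windows of mitosis genes (75.0%), in 2 of 16 windows of replication genes (12.5%) and in 17.9% of all 32851 promoter windows of the genome. The 15 mitosis windows with a CHR also held a CCAAT box, a combination found in 6.95% of all windows. E2F letters were found in 6 of 16 replication windows (37.5%), in 1 of 20 mitosis windows (5.0%) and in 2.26% of all windows. Of 19 CHR matches in mitosis windows, 14 began within 50 bases of the annotated start. The 2 windows of Prc1 overlap, so its 1 CHR is counted in both. The windows of Birc5, Ccne1, E2f1, Nusap1, Tk1 and Tyms held none of the 3 elements in these forms. A match says that the letters are present, and its use by any factor was not measured.

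By length-normalised level, Pcna, which encodes the sliding clamp of DNA polymerase, was the highest member with a mean of 62.5 FPKM over the 12 libraries. The MCM helicase genes Mcm7 (19.7 FPKM) and Mcm2 (14.9 FPKM) and the ribonucleotide reductase gene Rrm1 (11.4 FPKM) came next. Among the mitosis genes Top2a, a topoisomerase that untangles chromosomes, was highest with 8.11 FPKM, followed by Cdc20, an activator of the anaphase-promoting complex, with 4.22 FPKM. The lowest members were the helicase loader Cdc6 with 0.472 FPKM and the spindle checkpoint kinase Ttk with 0.288 FPKM. The replication members together held 203 ± 28.5 CPM in STD WT (SD, n = 3), 229 ± 21.8 in STD KO, 203 ± 83.3 in HFD WT and 264 ± 48.5 in HFD KO. The mitosis members together held 83.1 ± 21.5, 96.8 ± 22.3, 70.5 ± 58.3 and 95.4 ± 26.8 CPM in the same groups. The spread within HFD WT was the widest of the 4 groups for both sums.

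The spread within HFD WT was shared by most members, which had the same lowest and the same highest library of that group. HFD WT 1 had the lowest CPM of the 12 libraries for 34 of 41 members, 11 of 17 replication and 23 of 24 mitosis genes, against 17.0% of all genes tested. The exceptions were Mcm7, Cdc45, Tyms, E2f1, Ccne1, Ccne2 and Ttk. This library had the highest total count, 20864920, and the fewest genes with a count, 20386. HFD WT 2 was the highest library for 20 members, against 10.6% of all genes, and HFD KO 2 for 9, against 16.1%. The order HFD WT 2, then 3, then 1 was seen in 33 of 41 members and in 28.5% of all genes. The plot of every member in every library shows this as 1 column of low values.

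**Figure D1:**
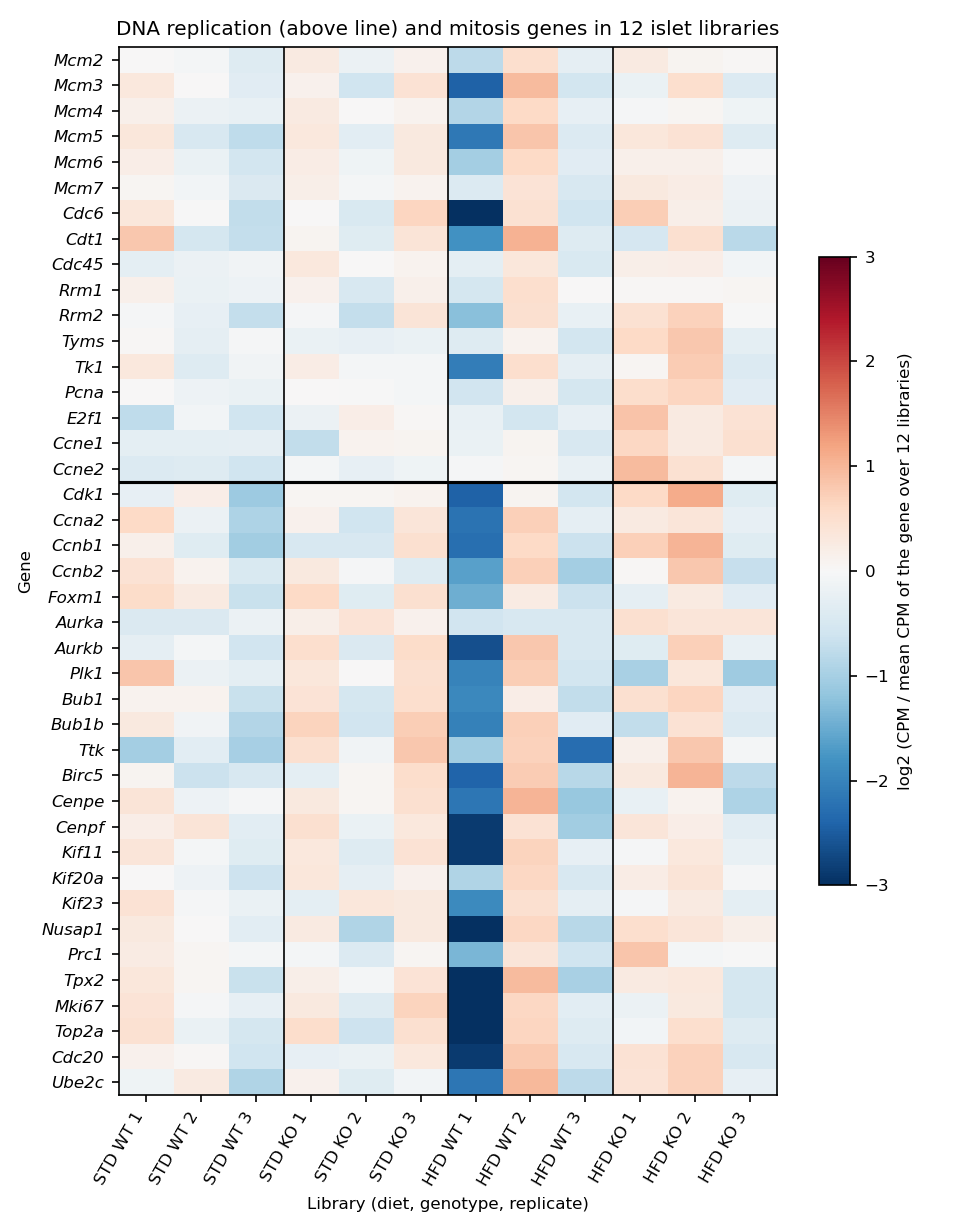
Each cell is the log2 ratio of a gene's CPM in 1 library to its mean over the 12 libraries, with replication genes above the horizontal line, mitosis genes below it, groups separated by vertical lines and colours ending at 3 in either direction. HFD WT 1 is the lowest library for 34 of the 41 genes, Aurka among them. The Aurka and E2f1 rows are higher in all 3 HFD KO libraries than in all 3 HFD WT libraries.

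Mki67, which encodes the proliferation antigen Ki-67 that coats mitotic chromosomes, shows the size of the pattern. It had 16.5, 12.1 and 10.6 CPM in the STD WT libraries, 15.4, 9.61 and 19.7 in STD KO, 1.56, 19.3 and 9.95 in HFD WT, and 11.1, 15.3 and 8.63 in HFD KO. The 4 groups overlapped, and only HFD WT 1, with 29 counts against 323 and 174 in the other HFD WT libraries, lay far from the rest. Top2a had 18.4, 11.8 and 9.41 CPM in STD WT, 19.6, 8.82 and 18.8 in STD KO, 1.34, 21.2 and 10.3 in HFD WT, and 12.7, 19.3 and 10.4 in HFD KO. Its lowest and its highest library both came from HFD WT. Tpx2, which targets Aurora A to the spindle, had 5, 120 and 33 counts in the HFD WT libraries, a 26.7-fold range in CPM.

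Within HFD WT the ratio of the highest to the lowest library had a median of 7.76 over the 24 mitosis genes and of 2.44 over the 17 replication genes. For 19 mitosis and 5 replication genes it was 5 or more, against 8.81% of all genes. In the other 3 groups the medians lay between 1.33 and 1.86, and no member reached 5, against 5.08% of all genes in STD WT, 3.07% in STD KO and 3.0% in HFD KO. Aurka, with a ratio of 1.07, was the most even mitosis gene within HFD WT, and Ccne2, with 1.2, the most even replication gene. Of 50 further mitosis genes tested, 43 were also lowest in HFD WT 1, as were 18 of 36 further replication genes, against 17.0% of all genes. Of 17 regulators of G1, 5 were lowest there.

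Markers of lymphocytes moved with the same libraries. All 10 B and T cell markers were lowest in HFD WT 1, against 17.0% of all genes, and highest in HFD WT 2, against 10.6%. None of these markers was at 0 in any library. Their summed level was 28.2, 577 and 169 CPM in the HFD WT libraries, 74.4, 370 and 89.3 in HFD KO, 273, 147 and 105 in STD WT, and 231, 155 and 227 in STD KO. The mitosis members summed to 18.1, 133 and 60.0 CPM in HFD WT, 95.2, 122 and 68.6 in HFD KO, 105, 82.7 and 61.8 in STD WT, and 104, 71.7 and 115 in STD KO. Both sums put the libraries in the same order within HFD WT and within STD WT. Within STD KO and HFD KO the orders differed, and HFD KO 1 had the lowest lymphocyte sum of its group beside an intermediate mitosis sum. Of the 7 stellate cell and fibroblast markers 6 were lowest in HFD WT 1 (summed 28.1 to 196 CPM in HFD WT), as were 5 of 10 macrophage markers, and none of the 9 beta cell markers. The part of these other cells in the member levels was not tested.

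**Figure D2:**
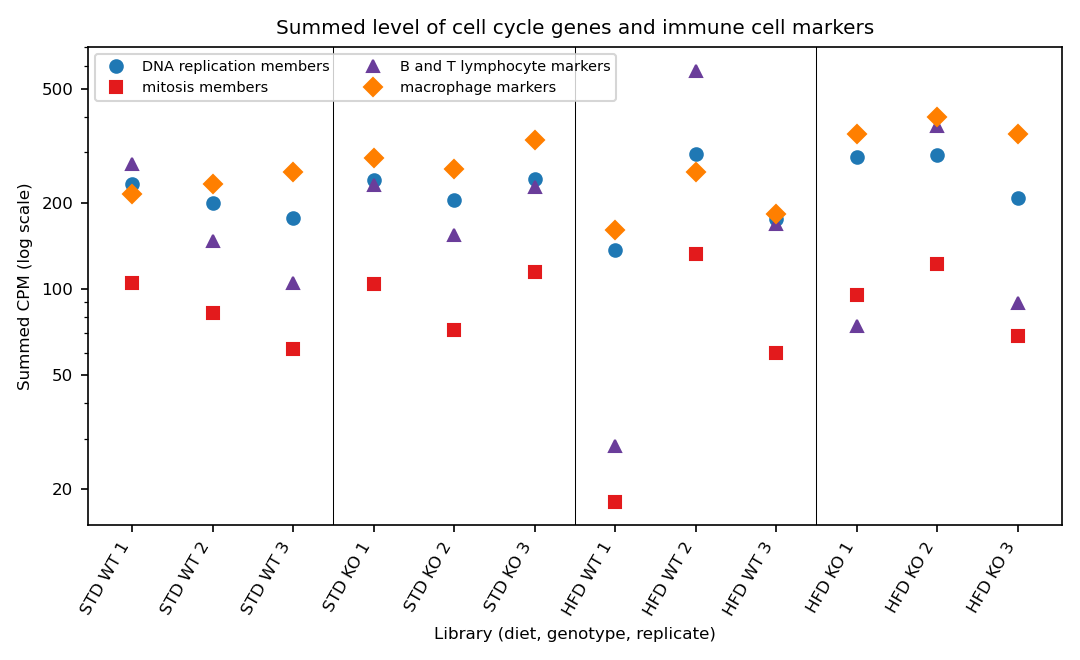
Summed CPM on a log axis for the replication members, the mitosis members, 10 lymphocyte and 10 macrophage markers in each of the 12 libraries, with 1 symbol per list and library. In HFD WT 1 the mitosis sum is 18.1 CPM and the lymphocyte sum 28.2 CPM, and in HFD WT 2 they are 133 and 577 CPM.

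The first comparison asked whether the knockout changed these genes on the standard diet. None of the 41 members passed edgeR's quasi-likelihood test at a Benjamini-Hochberg adjusted p under 0.05, where 1.34% of all genes were called higher and 0.367% lower in KO. At an unadjusted p under 0.05 there were 2 members (Aurka and E2f1), against 8.66% of all genes, and DESeq2 called 0 members. The log2 fold changes had a median of 0.20 over the members and of -0.02 over all genes, and 37 of 41 were above 0, against 47.0% of all genes. Without STD WT 3, the lowest STD WT library for most mitosis genes, the median was 0.06 and 23 of 41 were above 0. For 4 members, Aurka, Ttk, Cdc45 and Ccne2, all KO libraries lay above all WT libraries, against 7.52% of all genes. For 0 members they all lay below, against 7.32%.

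Among the genes of replication licensing, the 9 log2 fold changes on the standard diet ran from 0.03 to 0.35. Mcm2, a subunit of the replicative helicase, had 20, 18.8 and 15 CPM in STD WT and 23.6, 17.3 and 21.6 in STD KO (log2 fold change 0.22, SE 0.27, adjusted p = 0.999). These groups overlapped. Pcna had 56.5, 50.4 and 49.0 CPM in STD WT and 57.2, 55.8 and 54.0 in STD KO, also overlapping (0.10, SE 0.25, adjusted p = 0.999). E2f1, the transcription factor of the G1/S switch (chromosome 2, 154559407 to 154569892, minus strand), had 9.95, 15.8 and 11.1 CPM in STD WT and 14.9, 19.2 and 17.2 in STD KO. Its log2 fold change of 0.48 (SE 0.21) had an adjusted p of 0.529.

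In the mitosis set Aurka, the kinase of centrosome maturation and spindle assembly (chromosome 2, 172356190 to 172370535, minus strand), had the smallest p. It had 3.26, 3.29 and 3.90 CPM in STD WT and 5.05, 5.92 and 4.83 in STD KO. Every KO library was above every WT library, with a log2 fold change of 0.60 (SE 0.18, adjusted p = 0.214). A limma fit to log2(FPKM + 1) called Aurka here (adjusted p = 0.0462), whereas the adjusted p over the alternatives ran up to 0.757. Ttk had 0.275, 0.444 and 0.278 CPM in STD WT and 0.773, 0.512 and 0.977 in STD KO, without overlap (1.18, SE 0.63, adjusted p = 0.731), at 119 counts over all 12 libraries. Cdk1, the kinase that starts mitosis, had 2.43, 3.29 and 1.34 CPM in STD WT and 2.99, 2.96 and 3.08 in STD KO, which overlapped (0.36, SE 0.54, adjusted p = 0.999). Mki67 (0.19, SE 0.63) and Top2a (0.25, SE 0.70) were within the spread of the libraries, and without STD KO 3 the value of Mki67 was -0.06.

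The second comparison asked the same on the high fat diet. Aurka and E2f1 rose in KO, and none of the other 39 members passed the test, where 3.9% of all genes were called higher and 3.5% lower. At an unadjusted p under 0.05 there were 6 members (Aurka, E2f1, Tyms, Pcna, Ccne1 and Ccne2), against 24.3% of all genes, 5 of them replication genes. The median log2 fold change was 0.38 over the members and -0.00 over all genes, and 37 of 41 values were above 0, against 49.8% of all genes. All KO libraries were above all WT libraries for Aurka, E2f1 and Ccne1, against 11.2% of all genes.

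Aurka had 3.00, 3.16 and 3.20 CPM in HFD WT and 6.24, 5.73 and 5.68 in HFD KO. Its mean rose from 3.12 ± 0.105 to 5.88 ± 0.313 CPM (SD, n = 3), a log2 fold change of 0.91 (SE 0.18, 1.88-fold, edgeR adjusted p = 0.0117). Its lowest value was also in HFD WT 1, but by a small margin, and the 3 WT libraries lay close together and apart from KO. E2f1 had 14.5, 11.4 and 14.1 CPM in HFD WT and 30.6, 20.4 and 22.7 in HFD KO, with the highest value in HFD KO 1. Its mean rose from 13.3 ± 1.69 to 24.6 ± 5.32 CPM, a log2 fold change of 0.88 (SE 0.21, 1.84-fold, adjusted p = 0.0262). DESeq2 called both genes, with adjusted p of 0.000751 for Aurka and 0.00213 for E2f1.

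Without the library labelled HFD KO 2, Aurka (0.93, adjusted p = 0.0299) and E2f1 (1.0, adjusted p = 0.0285) were called, and the median of the members was 0.19, with 31 of 41 above 0.

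Both calls lay near the threshold. Each was held in 19 of 24 alternative analyses, with log2 fold changes from 0.68 to 0.97 for Aurka and from 0.70 to 1.15 for E2f1. The 24 include the omissions of standard diet libraries, which are not in the 2 groups compared and could hardly move the fold change. They also include an alternative chosen after seeing the data, in which Aurka had an edgeR adjusted p of 0.0498. The call of Aurka was lost without HFD WT 1 (0.88, adjusted p = 0.05), without HFD WT 3 (0.94, adjusted p = 0.0615) and without HFD KO 1 (0.87, adjusted p = 0.0598). That of E2f1 was lost without HFD WT 1 (0.95, adjusted p = 0.058), HFD WT 2 (0.76, adjusted p = 0.0669), HFD WT 3 (0.93, adjusted p = 0.0879) and HFD KO 1 (0.70, adjusted p = 0.133). With the replicate number as a block, E2f1 was called (0.83, SE 0.15, adjusted p = 0.0242) and Aurka was not (0.88, SE 0.25, adjusted p = 0.084). Both were lost when the high fat groups were fitted alone, with adjusted p of 0.0826 for Aurka and 0.0609 for E2f1.

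**Figure D3:**
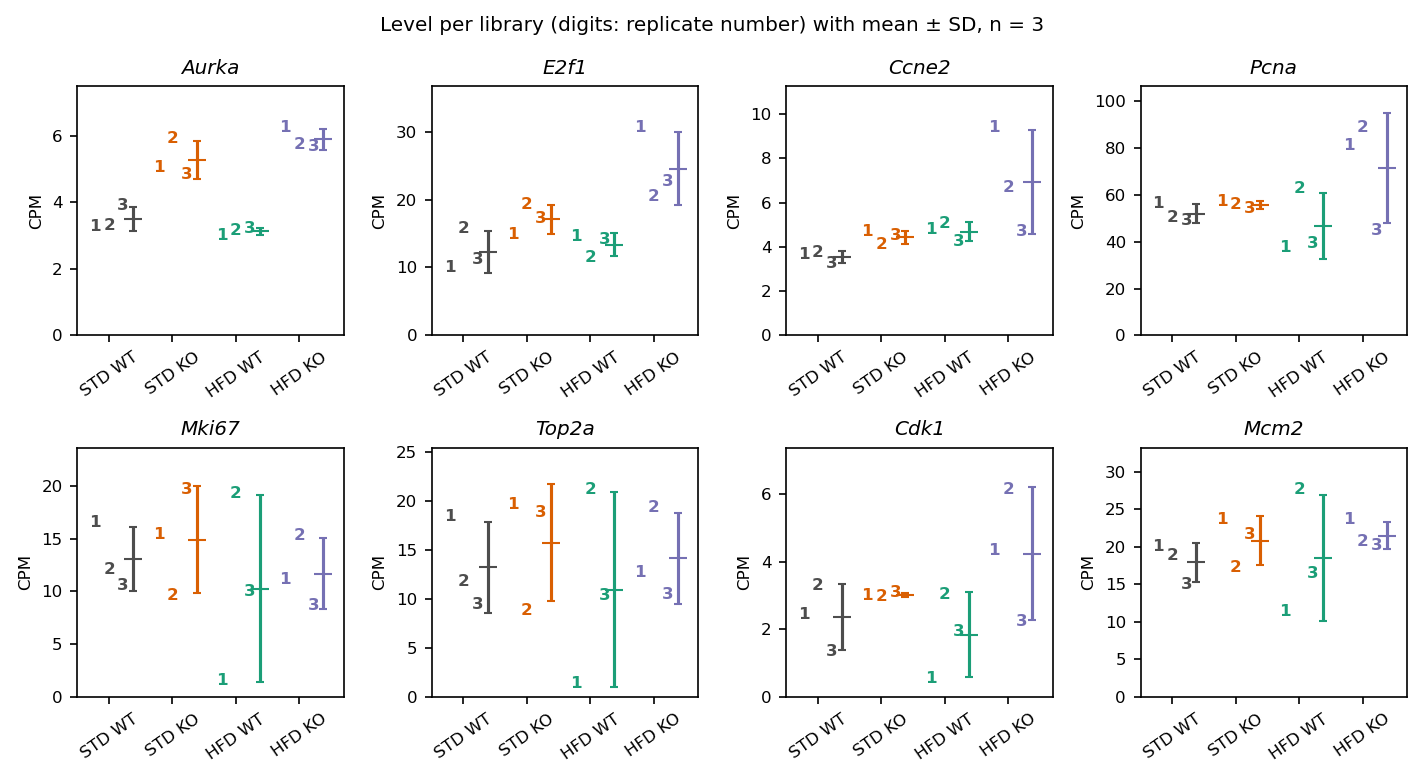
CPM of 8 genes by group, where each digit is 1 library with its replicate number and the bar beside it is the mean ± SD of 3 libraries. Aurka and E2f1 are higher in all 3 HFD KO libraries than in all 3 HFD WT libraries. Mki67, Top2a, Cdk1, Mcm2 and Pcna have their lowest value in HFD WT 1, as does Aurka by a small margin.

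The E cyclins, partners of CDK2 at the start of S phase, had high values in the same HFD KO library as E2f1. Ccne1 had 3.32, 4.05 and 2.74 CPM in HFD WT and 5.81, 4.56 and 5.34 in HFD KO, without overlap (0.63, SE 0.26, adjusted p = 0.165). Ccne2 had 4.77, 5.07 and 4.23 CPM in HFD WT and 9.39, 6.70 and 4.70 in HFD KO. HFD KO 3 lay inside the WT range, with a log2 fold change of 0.56 (SE 0.24, adjusted p = 0.185). Ccne2 overlaps Ints8 on the opposite strand, and no source used here states whether counting used strand. The same limit holds for Mcm7 (Cops6 and Ap4m1), Cdc45 (Ufd1), Ccna2 (Exosc9), Kif20a (Cdc23), Cdc20 (Elovl1), Prc1 (Rccd1), Tk1 (Afmid) and Nusap1 (Oip5).

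Of the genes for nucleotide synthesis and the clamp, Tyms and Pcna shared a pattern of 2 high KO libraries. Tyms, the thymidylate synthase gene, had 5.85, 8.23 and 5.15 CPM in HFD WT and 11.5, 13.2 and 6.21 in HFD KO (0.68, SE 0.27, adjusted p = 0.149). Pcna had 37.7, 62.8 and 39.2 CPM in HFD WT and 81.3, 88.8 and 44.7 in HFD KO (0.62, SE 0.25, adjusted p = 0.151). In both genes HFD KO 2 was the highest library, and HFD KO 3 lay below HFD WT 2. Without HFD KO 3 the members called were Tyms (0.96, adjusted p = 0.0148), Pcna (0.89, adjusted p = 0.0125), E2f1 (0.94, adjusted p = 0.0225), Aurka (0.95, adjusted p = 0.0139) and Ccne2 (0.79, adjusted p = 0.0268), while 2899 of all genes were called in place of 1189. Rrm2, the regulated subunit of ribonucleotide reductase, had a log2 fold change of 0.57 (SE 0.41, adjusted p = 0.42), its partner Rrm1 -0.02 (SE 0.24, adjusted p = 0.969), and the thymidine kinase gene Tk1 0.49 (SE 0.51, adjusted p = 0.601).

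Genes of the helicase and its loading did not pass the test and ran from -0.22 (the loader Cdt1) to 0.78 (the loader Cdc6). Mcm2 had 11.4, 27.7 and 16.4 CPM in HFD WT and 23.6, 20.7 and 20.2 in HFD KO. HFD WT held both the lowest and the highest library (0.22, SE 0.27, adjusted p = 0.668), and the value without HFD WT 1 was -0.04. The other MCM genes lay between 0.01 for Mcm4 and 0.30 for Mcm5, and Cdc45, a helicase cofactor, at 0.19.

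The genes that set the entry into mitosis ran from 0.31 for Ccna2 to 1.20 for Cdk1, the widest fold change of the 41. Cdk1 had 0.536, 3.04 and 1.94 CPM in HFD WT and 4.33, 6.15 and 2.23 in HFD KO. HFD KO 2 was its highest library, HFD KO 3 lay below HFD WT 2, and the test was not passed (SE 0.55, adjusted p = 0.209). Its cyclin partner gene Ccnb1 had 0.90 (SE 0.62, adjusted p = 0.40), and Foxm1, a transcription factor of mitosis genes, 0.38 (SE 0.47, adjusted p = 0.676). Ccnb2 (0.46, SE 0.57) may share reads with a pseudogene copy that is counted separately, so its value is uncertain.

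The kinases and checkpoint genes other than Aurka ran from -0.22 for the mitotic kinase Plk1 to 0.89 for the checkpoint kinase Bub1, with SEs of 0.52 to 0.65. Aurkb, the chromosomal passenger kinase, had 0.32 and its partner Birc5, the survivin gene, 0.65. The checkpoint gene Bub1b stood at 0.00. The 8 genes of spindle, kinetochore and kinesins ran from -0.14 for the kinetochore motor Cenpe to 0.82 for the microtubule binder Nusap1. Among them the spindle kinesin Kif11 had 0.27, the midzone kinesins Kif20a and Kif23 0.29 and 0.26, the midzone bundler Prc1 0.67, the kinetochore gene Cenpf 0.72, and Tpx2 0.32. Cdc20 and Ube2c, both of the anaphase-promoting complex pathway, had 0.52 and 0.46. None of these passed the test.

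How far the set as a whole lay above 0 on the high fat diet moved with the libraries in the fit. The replication members had a median log2 fold change of 0.30 and the mitosis members of 0.42 with all libraries. Without HFD WT 1 the medians were 0.10 and 0.01, with 23 of 41 members above 0. Without HFD WT 2 they were 0.76 and 1.29, and all 41 were above 0. That fit keeps HFD WT 1, the lowest library for 34 of 41 members. In it 27 members had an unadjusted p under 0.05, but the share of all genes was not counted there. With all libraries there were 6, against 24.3% of all genes. Without HFD WT 2 only Aurka was called, where 569 of 16412 genes tested were called higher and 767 lower. Without HFD WT 3 the medians were 0.20 and 0.30, and with the replicate block 0.52 and 0.75. The median over all 41, 0.38 with all libraries, was 0.19 without HFD KO 2 and 0.585 without HFD KO 3. Aurka stayed between 0.88 and 0.94 over the 3 omissions of a WT library, whereas Mki67 was at -0.32 and Top2a at -0.16 without HFD WT 1, against 0.19 and 0.37 with all libraries.

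**Figure D4:**
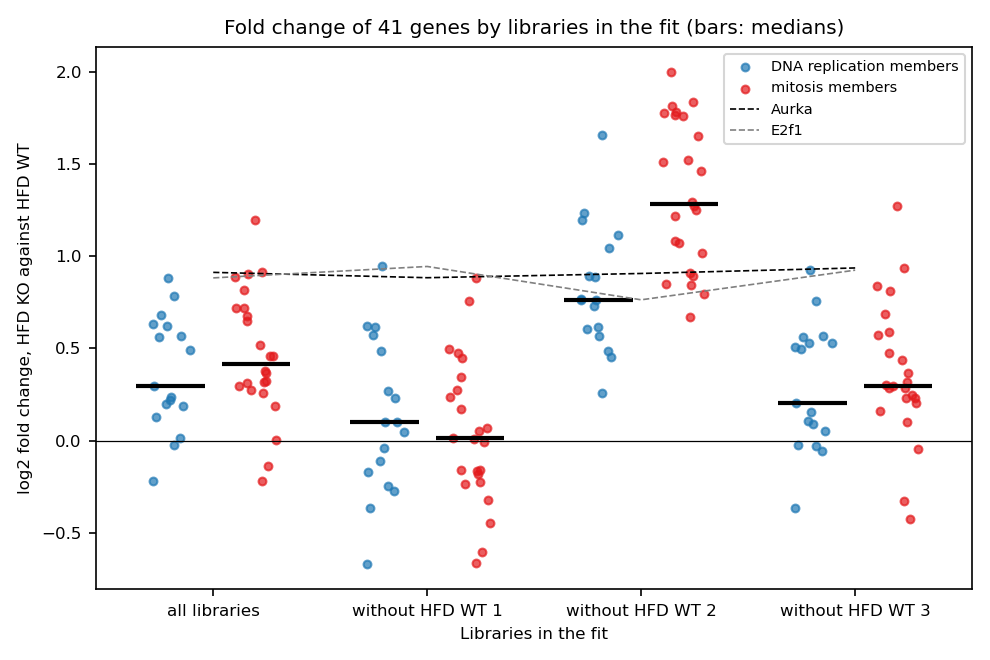
Log2 fold changes of HFD KO against HFD WT for the 41 genes with all libraries and without each HFD WT library in turn, with 1 point per gene, bars at the medians of the replication and mitosis genes, and lines for Aurka and E2f1. The mitosis median is 0.42, 0.01, 1.29 and 0.30 from left to right, while the Aurka line stays between 0.88 and 0.94.

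The third comparison set the high fat against the standard diet within WT, which uses the same WT libraries as the comparisons above. No member and no gene of the 16076 was called by edgeR (0.0% in both directions), and 0 members had an unadjusted p under 0.05, against 4.74% of all genes. DESeq2 called 0 members and 38 genes. The members had a median log2 fold change of -0.12, against 0.01 over all genes, with 17 of 41 above 0, against 51.5%. The mitosis median was -0.25 and the replication median 0.04. Without HFD WT 1 the median of all members was 0.25, and without HFD WT 2 it was -0.88.

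The members with the smallest p within WT were Ccne2, Foxm1 and Cenpf. Ccne2 had 3.67, 3.74 and 3.23 CPM in STD WT, below each of the HFD WT values above (0.40, SE 0.25, adjusted p = 1.0). It was the 1 member whose HFD WT libraries all lay higher, against 5.06% of all genes. Aurka was the 1 member whose HFD WT libraries all lay lower, against 4.53%, with means of 3.48 ± 0.36 and 3.12 ± 0.105 CPM (-0.16, SE 0.19, adjusted p = 1.0). Foxm1 had 2.61, 2.15 and 1.11 CPM in STD WT and 0.644, 2.09 and 1.14 in HFD WT, and Cenpf 2.71, 3.04 and 1.89 in STD WT and 0.322, 3.16 and 1.14 in HFD WT. In both genes HFD WT 1 was lowest and the groups overlapped (-0.61, SE 0.47, and -0.73, SE 0.59, adjusted p = 1.0 for both).

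Within KO, none of the 41 members was called between the diets, where 0.0311% of all genes were called higher and 0.0124% lower. At an unadjusted p under 0.05 there were 4 members, all of the replication set, against 12.5% of all genes: Ccne2, E2f1, Tyms and Ccne1. DESeq2 called 0 members. Ccne2 went from 4.69, 4.10 and 4.49 CPM in STD KO to the HFD KO values above, of which HFD KO 3 was just over the highest STD value (0.64, SE 0.24, adjusted p = 0.351). E2f1 (0.52, SE 0.21, adjusted p = 0.358) and Ccne1 (0.59, SE 0.26, adjusted p = 0.39) also had all HFD KO libraries above all STD KO libraries, as 5.91% of all genes did. Tyms had 6.59, 6.37 and 6.59 CPM in STD KO, and HFD KO 3 lay below all 3 of these (0.66, SE 0.27, adjusted p = 0.366). Without HFD KO 3, Tyms (0.94, adjusted p = 0.0406) and Ccne2 (0.88, adjusted p = 0.0418) were called, and 801 of all genes in place of 7. The median of the 24 mitosis members was -0.01 and that of the replication members 0.08, with -0.03 over all genes. Without the library labelled HFD KO 2, 0 members were called and the median of all 41 was -0.08, against 0.08 with it.

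Whether the knockout differed between diets was tested as an interaction. No member and no gene was called by edgeR (0.0% in both directions), 0 members had an unadjusted p under 0.05, against 7.91% of all genes, and DESeq2 called 0 members and 30 genes. The values had a median of 0.22, with 27 of 41 above 0, against 50.9% of all genes; without HFD WT 1 the median was -0.20, and without HFD WT 2 it was 0.84. The smallest p values were those of Tyms (0.81, SE 0.38, adjusted p = 0.621), Pcna (0.52, SE 0.35, adjusted p = 0.655) and Prc1 (0.88, SE 0.59, adjusted p = 0.658). Prc1 had 2.16, 1.90 and 1.73 CPM in STD WT, 1.75, 1.37 and 1.90 in STD KO, 0.697, 2.32 and 1.20 in HFD WT, and 3.21, 1.73 and 1.79 in HFD KO. Its lowest library was HFD WT 1, and KO and WT overlapped on both diets. For Aurka the difference between the diets was 0.32 (SE 0.26, adjusted p = 0.71), and for E2f1 0.41 (SE 0.29, adjusted p = 0.674). So a larger effect on the high fat diet than on the standard diet was not shown for either gene. Without the library labelled HFD KO 2 the median was 0.02 and 0 members were called.

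Other genes of the same processes were taken from lists that hold none of the 41. Of 50 further mitosis genes tested, 1 rose in KO on the standard diet (1.34% of all genes) and 4 on the high fat diet (3.9% of all genes), and none fell. Racgap1, which encodes a regulator of the central spindle and cytokinesis, rose on both diets. It had 12, 13.1 and 11.5 CPM in STD WT and 32.4, 31 and 35.9 in STD KO (1.44, SE 0.16, adjusted p = 0.000736). It had 10.3, 16.8 and 13.6 CPM in HFD WT and 34.4, 32.7 and 33.1 in HFD KO (1.30, SE 0.16, adjusted p = 0.000725). The KO libraries stood clear of the WT libraries on both diets, and the call was made in all 24 alternatives of each comparison. The KO libraries of Aurka and Racgap1 were thus above WT on either diet, with the call of Aurka on the high fat diet alone.

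The other calls were on the high fat diet. Spc25, a subunit of the NDC80 kinetochore complex, had 155, 69.2 and 117 CPM in HFD WT and 481, 391 and 254 in HFD KO (1.72, SE 0.37, adjusted p = 0.0165). Its mean of 193 FPKM over the 12 libraries was above that of every one of the 41 members, Pcna included. Within HFD WT the Spc25 level was highest in HFD WT 1 and lowest in HFD WT 2, the reverse of the order in 22 of 24 mitosis members. Its call was lost without HFD WT 3 (adjusted p = 0.0872), HFD KO 1 (0.0785) and HFD KO 2 (0.0564). Cks1b, a CDK binding subunit, had 11.5, 12.2 and 9.55 CPM against 26.0, 22.1 and 17.1 (0.97, SE 0.24, adjusted p = 0.033). It was lost without STD WT 2, any of the 3 HFD WT libraries, HFD KO 1 or HFD KO 2, with adjusted p of 0.0517 to 0.153. The mitotic kinase gene Pbk had 0.375, 1.55 and 0.457 CPM against 7.85, 4.49 and 1.94 (2.58, SE 0.69, adjusted p = 0.0446). Its call was held without STD KO 2, HFD WT 2 or HFD KO 3 and lost without each of the other 9 libraries (adjusted p of 0.0512 to 0.189), as well as with the replicate block (adjusted p = 0.0564).

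Of 36 further replication genes tested, 1 rose on the high fat diet, where 3.9% of all genes did. Gmnn encodes geminin, the inhibitor of the loader CDT1, and had 5.95, 6.80 and 4.46 CPM in HFD WT and 10.7, 18.0 and 8.15 in HFD KO (1.10, SE 0.30, adjusted p = 0.047). The call was held without STD WT 1 or HFD KO 3 and lost without each of the other 10 libraries, with adjusted p of 0.0579 to 0.198. Of 17 regulators of G1, Cdkn1a rose on the high fat diet, and none was called lower on either diet. All KO libraries lay above all WT libraries for 2 of the 17 on each diet, against 7.52% and 11.2% of all genes. All lay below for 3 of the 17 on the standard diet and for 2 on the high fat diet, against 7.32% and 13.3%. Ccnd1, the cyclin D1 gene, was among those below on both diets. Its means were 76.8 ± 19.3 CPM in STD WT and 36.1 ± 4.46 in STD KO (SD, n = 3). On the high fat diet they were 66.9 ± 6.1 CPM in HFD WT and 43.1 ± 16.6 in HFD KO. The libraries had 66.2, 73.3 and 61.1 CPM in HFD WT and 51.7, 23.9 and 53.6 in HFD KO, lowest in HFD KO 2. Cdkn1a encodes the CDK inhibitor p21 and had 36.4, 21.8 and 28.4 CPM in HFD WT and 58.8, 47.4 and 50 in HFD KO (0.85, SE 0.22, adjusted p = 0.0427). Its call was lost without STD WT 1, STD WT 2, STD KO 3, HFD WT 2, HFD WT 3, HFD KO 1 or HFD KO 2 (adjusted p of 0.0509 to 0.169).

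Without the library labelled HFD KO 2 the calls of Spc25 (1.69, adjusted p = 0.0564), Gmnn (0.71, adjusted p = 0.169), Cks1b (0.96, adjusted p = 0.0868), Pbk (2.62, adjusted p = 0.0929) and Cdkn1a (0.91, adjusted p = 0.0739) were lost, while that of Racgap1 was held (1.32, adjusted p = 0.00259). With the replicate block, edgeR held the high fat diet calls of Racgap1 (1.29, adjusted p = 0.0126) and Spc25 (1.71, adjusted p = 0.0231). It also held those of Gmnn (1.01, adjusted p = 0.039), Cks1b (0.93, adjusted p = 0.0204) and Cdkn1a (0.84, adjusted p = 0.0204).

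Cell type markers beside the high fat diet result were as follows. Of 10 macrophage markers 3 rose in KO, where 3.9% of all genes were called higher. These were C1qb (1.01, SE 0.19), C1qc (1.10, SE 0.26) and Mrc1 (2.42, SE 0.45), with edgeR adjusted p of 0.00896, 0.0245 and 0.00757. The macrophage list summed to 161 to 257 CPM in HFD WT and to 347 to 399 CPM in HFD KO, without overlap, and none of its markers was at 0 in any library. The 10 lymphocyte markers were not called, with a median of -0.54. The 7 stellate cell and fibroblast markers had a median of 1.19 and none was called, with sums of 28.1 to 196 CPM in HFD WT and 132 to 470 CPM in HFD KO. Of the 9 beta cell markers 1 was called, where 3.5% of all genes were called lower. This was Ucn3, a peptide of mature beta cells, which fell by 1.13 on the log2 scale (SE 0.19, adjusted p = 0.00459). The 9 log2 fold changes ran from -1.13 to 0.83, with a median of -0.38 and 3 above 0. The list summed to 330000 ± 67100 CPM in HFD WT and 325000 ± 68300 in HFD KO (SD, n = 3). The part of other cell types in the differences of Aurka, E2f1 and the further genes was not tested.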

How the data were processed

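RNA from islets was sequenced in 12 libraries. Read counts per gene and FPKM were deposited by the authors, who per the submitters' processing notes used TopHat2, Cufflinks and DESeq with mm10. The sources used here do not give the role of each tool, the annotation or whether strand was used in counting. All 257939 deposited FPKM values above 0 equalled the deposited count over gene length and library total within a relative tolerance of 1e-05. Symbols and coordinates came from the GENCODE annotation of the same build (54409 of 54532 identifiers).

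Counts were tested with edgeR 4.0.16 (quasi-likelihood, robust; minimum count 10 and minimum total 15; trimmed mean of M values) under R 4.3.3, with 1 mean per group over all 12 libraries, 5 contrasts and Benjamini-Hochberg adjustment over 16076 genes at 0.05. The fit was tested on simulated data. A group that does not overlap another has all its CPM on one side. The members and lists were chosen with earlier results of these data known. Values in every library are given for Mki67, Top2a, Pcna, Cdk1, Mcm2, Aurka, members past the threshold and the 3 members of smallest p where fewer than 3 pass. Extremes by mean FPKM and called genes of the other lists are also named. Other named genes were chosen after their values were seen.

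Same-numbered HFD WT and HFD KO libraries deviated together (correlation of deviations from group means over all genes 0.515, 0.41 and 0.336). Blocked values therefore stand beside the calls among members and further genes, and beside the medians of the replication and mitosis members. They are not given for genes that were not called or for cell type markers. The labels give no source of the pairing. The other comparisons had correlations from -0.4 to 0.186. Replicates correlated at 0.913 to 0.967, and no pair was a duplicate. Alternatives were DESeq2 1.42.0 (its test and its size factors), no and a stricter count filter, limma 3.58.1 on log2(FPKM + 1) and log2(FPKM + 0.1), the compared groups alone, the replicate block, each library left out, STD WT 3 and HFD KO 2 left out together, and offsets corrected for gene length, also without HFD KO 3. The precision of low genes is limited by counts (Ttk, 119 counts in all). Reads without molecular identifiers are not independent molecules.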

Additional observations from a re-analysis of the deposited data

How the results depend on the processing

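The number of members called was compared over 24 alternatives of each two-group comparison and 23 of the interaction. It was the same in 23 alternatives for KO against WT on the standard diet and in 16 on the high fat diet. It was 0 in all alternatives for the diets within WT and for the interaction. On the standard diet the exception was limma on log2(FPKM + 1), with 1 member called (Aurka). On the high fat diet, with 2 called by edgeR, there were 0 in the compared groups alone, 1 with the replicate block and 4 with offsets corrected for gene length without HFD KO 3. Leaving out 1 library gave 0 to 5 called. For the diets within KO, leaving out 1 library gave 0 to 2. The replicate block changed no other call among the members. On the standard diet and between diets, where numbers did not pair the libraries, it left the count of members called at 0. It moved the count of all genes called on the standard diet from 275 to 135. Over all alternatives 135 to 484 genes were called on the standard diet and 519 to 2899 on the high fat diet. For the diets there were 0 to 38 within WT (38 with DESeq2, 0 with edgeR) and 0 to 801 within KO (113 with DESeq2, 7 with edgeR), and for the interaction 0 to 30 (30 with DESeq2). In limma on FPKM the median of all genes moved to at most 0.12 on the standard diet and to -0.205 for the diets within KO. As a percent of its mean over the 12 libraries, each group's summed level of either set moved by less than 1 SD of the group when plain library totals or FPKM were used. Even so, the replication means of STD KO and HFD KO, 229 and 264 CPM, were 250 and 251 over plain library totals. In summed FPKM they were 190 and 193.

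Some values changed sign. Over omitted libraries, Mki67 ran from -0.06 (without STD KO 3) to 0.42 on the standard diet. On the high fat diet it ran from -0.32 (without HFD WT 1) to 1.02 (without HFD WT 2), with -0.05 without HFD KO 2 and -0.03 without STD WT 3 and HFD KO 2 together. Top2a ran from -0.16 and Mcm2 from -0.04, both without HFD WT 1, to 1.27 and 0.62, both without HFD WT 2. With length-corrected offsets and without HFD WT 1, an alternative chosen after seeing the data, they were at -0.15 and -0.10. The cause was not tested. With 3 libraries per group, the SEs of most mitosis genes were near 0.6, which limits the differences detectable there.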
